A study of Mus musculus with 12 samples.

Results

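The comparison set all irradiated tumours against all non-irradiated tumours in one model, whether or not they had also received a 4-1BB agonist. All 12 RNA-seq libraries of the series entered it. The 6 irradiated libraries were 3 from tumours given radiotherapy alone (RT) and 3 from tumours given radiotherapy together with muFAP-4-1BBL (RT_FAP41BBL). The 6 non-irradiated libraries were 3 from tumours with no treatment (control) and 3 from tumours given muFAP-4-1BBL alone (FAP41BBL). All 12 tumours came from TS/A mouse breast carcinoma cells combined with cancer-associated fibroblasts (CAF), with the genotype given as WT. The agent muFAP-4-1BBL brings the ligand of 4-1BB, a costimulatory receptor of T cells, to fibroblast activation protein on activated fibroblasts. The labels give neither a radiation dose, a number of fractions, a time of harvest, a mouse strain nor an animal number. Nothing in them says that the libraries of a group came from separate animals, and the p-values therefore reflect only how far these libraries differ, a spread that may be technical.

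Ionising radiation breaks DNA, and the transcription factor p53 then switches on genes of cell cycle arrest, repair and cell death. DNA that reaches the cytoplasm of irradiated cells can be sensed by cGAS, which leads through STING to type I interferon and to a large set of interferon-stimulated genes. Irradiated tumours are also known to draw in monocytes through chemokines such as CCL2. The sterol sensor SCAP and the transcription factor SREBP2, encoded by Srebf2, control the genes of cholesterol synthesis and uptake in most cells.

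Library totals lay between 34076477 and 42067481 counts, and 24171 to 25773 genes had at least 1 count. Levels are given as CPM, read counts scaled to library size and adjusted between libraries by TMM. The labelled cell mixture was checked against its markers. Krt8, a keratin of simple epithelia, lay between 231 and 437 CPM and Col1a1, a collagen chain of fibroblasts, between 1900 and 3350 CPM, while Epcam, an epithelial adhesion molecule, lay between 0.0824 and 8.18 CPM. Skeletal muscle transcripts differed between the groups. The 25 genes of a muscle list made up 0.827% to 1.87% of each RT library (n = 3) and 0.0263% to 0.297% of each of the 9 others. All of the 25 had a log2 change above 0, with a median of 2.18, and 1 of them, Myh7, passed the test. The muscle count depended on the fit: 22 without FAP41BBL 3, 14 by limma-voom and 7 in the agonist-free libraries alone. It was 0 without control 1, control 2, control 3 or RT 3. Myh7 lost its call in those 4 of the 12 fits without 1 library, with an adjusted p up to 0.0815. None of the defining muscle markers was at 0 in any library: Acta1, skeletal muscle actin, had a lowest value of 11.0, a median of 118 and a highest of 437 CPM without irradiation and 142, 814 and 2615 CPM with it. The muscle signal thus moved with irradiation in the agonist-free tumours, and the main effect was also fitted with the muscle score (mean log2 CPM of the list) as a covariate. Of 129 named genes that passed the test, 82 lost the call in that fit. A log2 change smaller by over 1.5 times was found for 26 of them, and none was larger by that much. The score was itself tied to irradiation, at 7.67 to 8.78 in RT and 1.17 to 5.82 without irradiation. A call lost in that fit, here or below, therefore does not show that muscle content made the change. The interaction was not fitted with this covariate.

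**Figure D1:**
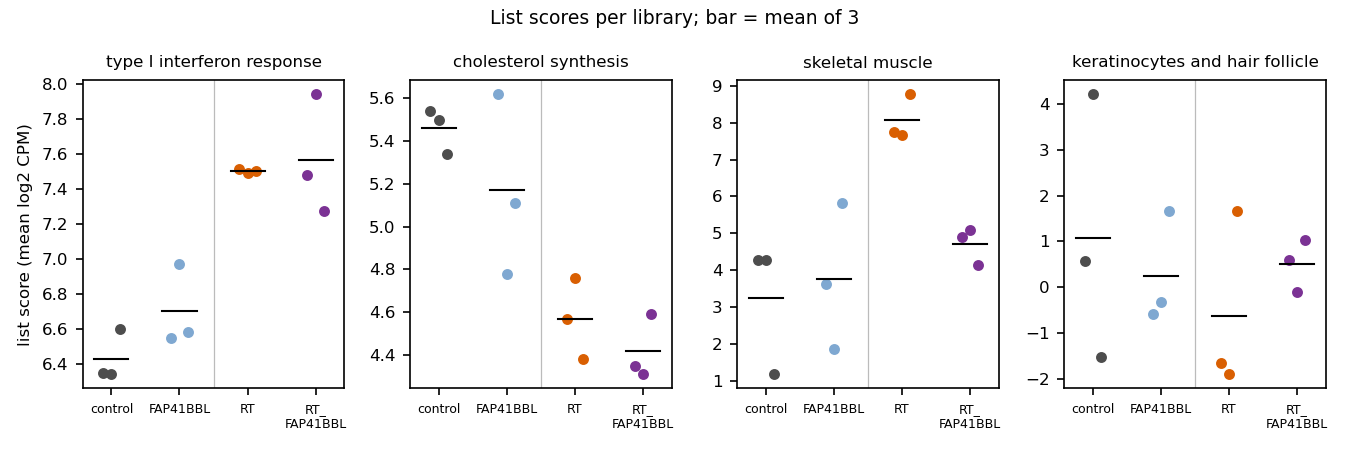
Score of 4 gene lists in each of the 12 libraries, as the mean log2 CPM over the list on the y axis and the 4 groups on the x axis, with non-irradiated groups left of the grey line and bars at the mean of 3 libraries. The type I interferon scores of the irradiated libraries (7.27 to 7.94) lie above all others (6.34 to 6.97) and their cholesterol scores (4.31 to 4.76) below all others (4.78 to 5.62), while the muscle score is raised in RT only and the keratinocyte score is 4.22 in control 2 and -1.9 to 1.67 elsewhere.

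In irradiated tumours 38 of 39 genes of the type I interferon response were higher and 21 of 28 genes of cholesterol synthesis were lower. Smaller parts of other groups were higher: 13 of 40 p53 targets, 8 of 31 genes of macrophages and monocytes and 8 of 21 chemokines. The lists were chosen with earlier results of these data known, so these counts are not an independent check on them. Of 17757 genes tested, 691 were higher and 420 lower in irradiated tumours at an adjusted p under 0.05, by edgeR's quasi-likelihood test with the agonist as a second factor and Benjamini-Hochberg adjustment. That is 6.26% of genes tested, with 3.89% higher and 2.37% lower. With scaling to library totals in place of TMM the split was 640 higher and 589 lower. Large changes were mostly rises: 236 of the higher genes had a log2 change of at least 1, and 47 of the lower genes one of at most -1. The 6 irradiated libraries lay above the 6 others without overlap for 316 genes (1.78%) and below them for 243 genes (1.37%), which is 3.15% of genes in all. The median log2 change over all tested genes was 0.00314. Adding the muscle score as a covariate left 118 genes higher and 28 lower. Leaving out control 2 left 331 higher and 193 lower, and leaving out FAP41BBL 3 gave 1299 higher.

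Of 40 p53 target genes 13 rose, led by Cdkn1a, which encodes the cell cycle inhibitor p21. Cdkn1a (GRCm39 chr17:29309950-29319701, plus strand) had the smallest p of all genes. Its lowest, median and highest levels were 36.9, 51.4 and 61.5 CPM in the non-irradiated libraries and 112, 141 and 157 CPM in the irradiated ones. The irradiated libraries all lay above the others, and the log2 change was 1.45 ± 0.12 (SE; adjusted p = 0.000207). Sesn2, a stress-induced inhibitor of mTORC1 signalling, went from 13.2, 14.9 and 15.1 CPM to 21.8, 24.1 and 28.0 CPM, again without overlap (log2 change 0.77 ± 0.08, adjusted p = 0.000609). Eda2r, a death receptor of the TNF receptor family, rose from 1.13, 2.12 and 2.9 CPM to 3.35, 6.90 and 12.8 CPM (log2 change 1.74 ± 0.29, adjusted p = 0.00468). Aen, a nuclease of apoptosis, rose by a log2 change of 0.62 ± 0.08 (adjusted p = 0.001).

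Of the 40 genes 2 were lower, 11 in all had a log2 change below 0, and the median was 0.20. The irradiated libraries had list scores of 4.36 to 4.56 and the others of 4.08 to 4.26, with no overlap. The rest of the pathway was described by genes chosen after their values were seen. Ccng1, cyclin G1, rose from a median of 116 to 185 CPM without overlap of the groups (log2 change 0.64 ± 0.11, adjusted p = 0.00618). Mdm2, the ubiquitin ligase that limits p53, had a log2 change of 0.38 ± 0.08 (adjusted p = 0.0186), and this call was lost without control 2 (adjusted p up to 0.0663 over the left-out libraries) and without control 3. Bax, a pore-forming apoptosis protein, had a log2 change of 0.36 ± 0.10 and did not pass (adjusted p = 0.0528), and Sesn1 had one of -0.20 (adjusted p = 0.29). The 2 members that fell were Ddit4, an mTORC1 inhibitor that hypoxia also induces (log2 change -0.86 ± 0.18, adjusted p = 0.016), and Trp53i11 (-0.69, adjusted p = 0.0243), whose call was lost without FAP41BBL 1 or control 2. With the muscle score as a covariate, 3 of the 40 genes were called higher and the median was 0.16, and Cdkn1a kept its call (log2 change 1.25, adjusted p = 0.0194). Eda2r, at 0.97 (adjusted p = 0.116), and Ccng1, at 0.42 (adjusted p = 0.247), did not pass in that fit.

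Few proliferation and repair genes were called, beside 6.26% of all genes tested. In the list of G2/M and mitosis genes, 1 of 30 fell, Ccnb2, a mitotic cyclin (log2 change -0.53 ± 0.14, adjusted p = 0.0399), and none rose. That call was lost in 8 of the 12 fits that left out 1 library, with an adjusted p up to 0.0947. All 30 had a log2 change below 0, whereas 50.5% of all tested genes had one above 0. Their median was -0.16 and kept its sign under every alternative. The list scores overlapped, from 6.28 to 6.77 without irradiation and 6.15 to 6.79 with it. Mki67, a marker of cycling cells, lay between 332 and 451 CPM without irradiation and between 198 and 430 CPM with it (log2 change -0.22 ± 0.16, adjusted p = 0.423). In the G1/S and DNA replication list, 1 of 30 genes was higher: Ccne1, cyclin E1 (log2 change 0.52 ± 0.09, adjusted p = 0.0064). None of 37 DNA repair and checkpoint genes passed in either direction, and their median log2 change was 0.02.

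**Figure D2:**
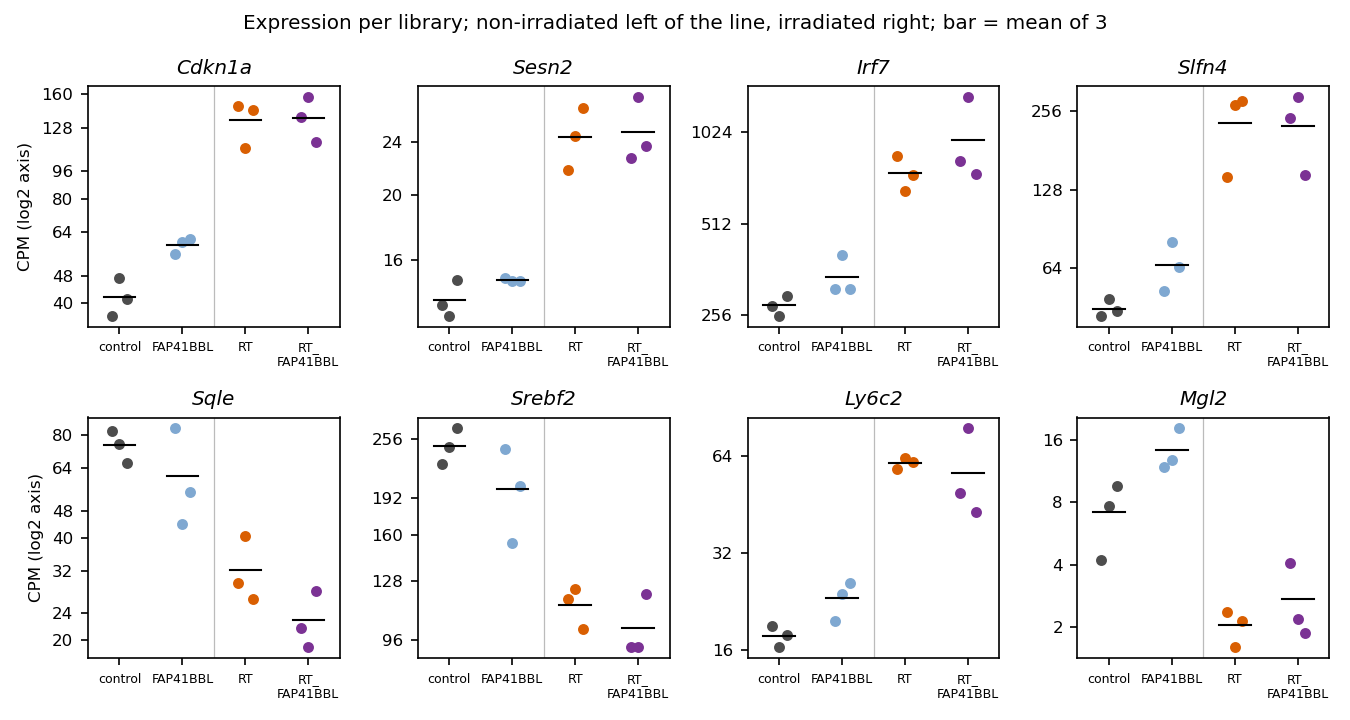
Level of 8 genes in each of the 12 libraries in CPM on a log2 axis, by group, with non-irradiated groups left of the grey line and bars at the mean of 3 libraries. Cdkn1a, Sesn2, Irf7, Slfn4 and Ly6c2 lie higher, and Sqle, Srebf2 and Mgl2 lower, in all 6 irradiated libraries than in any of the 6 others.

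Interferon-stimulated genes rose almost without exception. In the type I interferon response list 38 of 39 tested genes were higher and none was lower, with a median log2 change of 0.89. For 31 of the 39 the irradiated libraries all lay above the others. The remaining gene did not pass. The count was 34 to 38 genes whichever library was left out, and 27 genes with the muscle score as a covariate, at a median log2 change of 0.93. Fitted alone, the 6 agonist-free libraries gave 34 genes higher at a median of 1.01, and the 6 agonist-treated ones 4 genes at a median of 0.85.

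Irf7, the transcription factor that amplifies type I interferon production, went from 255, 305 and 403 CPM to 656, 785 and 1339 CPM (log2 change 1.47 ± 0.14, adjusted p = 0.000472). The lowest irradiated library stood above the highest non-irradiated one. Oasl1, an inhibitor of Irf7 translation, went from 35.0, 49.2 and 59.0 CPM to 92.9, 112 and 168 CPM (log2 change 1.36 ± 0.14, adjusted p = 0.000675). Ifit3b, an RNA-binding antiviral protein, went from 16.3, 18.4 and 27.1 CPM to 44.2, 65.7 and 103 CPM (log2 change 1.82 ± 0.19, adjusted p = 0.000675). Both sets of libraries again stayed apart, although Ifit3b shares reads with near-identical Ifit genes and its own value is uncertain. Rtp4, a receptor chaperone induced by interferon, rose by 0.89 ± 0.10 (adjusted p = 0.000875).

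Further antiviral effectors, chosen after their values were seen, rose as well. Rsad2, which makes a chain-terminating nucleotide, went from 44.0, 62.0 and 103 CPM to 133, 189.8 and 242 CPM (log2 change 1.55 ± 0.20, adjusted p = 0.00146). Isg15, a ubiquitin-like modifier, went from 78.7, 92.2 and 105 CPM to 145, 185 and 317 CPM (log2 change 1.22 ± 0.17, adjusted p = 0.00207), and Oas3, which makes the activator of RNase L, had a log2 change of 1.25 ± 0.15 (adjusted p = 0.000985). In the signalling arm, Stat2 had a log2 change of 0.68 ± 0.11 (adjusted p = 0.00417), with 1 irradiated library below the highest non-irradiated one at 228 against 232 CPM. Irf9, its partner in the same complex, changed by 0.31 ± 0.07 (adjusted p = 0.0134), a call lost without control 2 and without RT_FAP41BBL 2. Bst2, tetherin, rose from a median of 369 to 619 CPM (log2 change 0.88 ± 0.14, adjusted p = 0.00326).

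The promoters of these genes are shown because many hold the core of the interferon-stimulated response element, the site bound by the complex that holds STAT2 and IRF9. The motif searched was GAAA followed by any 2 bases and a further GAAA, on both strands, in the window from 250 bases before to 50 bases after each RefSeq gene start on GRCm38.p6, matched by symbol. Capitals mark the matches, overlapping ones run together, and each stretch is written 5′ to 3′ on the strand of its gene. Ifit3b lies on the plus strand (chr19:34607739-34607842), Isg15 on the minus strand (chr4:156200845-156200926), Oas3 on the minus strand (chr5:120777695-120777764), Rsad2 on the minus strand (chr12:26456533-26456602), Stat2 on the plus strand (chr10:128270248-128270315) and Bst2 on the minus strand (chr8:71537557-71537632).
Ifit3b: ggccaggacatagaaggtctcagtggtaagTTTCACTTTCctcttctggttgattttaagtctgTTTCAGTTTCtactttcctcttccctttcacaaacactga
Isg15: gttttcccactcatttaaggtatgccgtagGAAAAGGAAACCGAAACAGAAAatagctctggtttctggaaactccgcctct
Oas3: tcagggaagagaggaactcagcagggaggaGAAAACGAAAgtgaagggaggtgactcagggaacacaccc
Rsad2: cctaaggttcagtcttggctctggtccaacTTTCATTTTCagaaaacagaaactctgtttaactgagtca
Stat2: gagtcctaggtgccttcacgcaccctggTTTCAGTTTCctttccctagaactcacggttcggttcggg
Bst2: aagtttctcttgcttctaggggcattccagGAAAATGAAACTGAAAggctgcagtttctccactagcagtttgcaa

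Isg15 held 3 overlapping matches, the first at -78 from its start, Ifit3b and Bst2 held 2 each, and the 3 others held 1. A window was available for 11961 of the 17757 tested genes (67.4%). The core was found in 3.87% of them, in 12.7% of 505 genes called higher and in 1.97% of 305 called lower. It was found in 15 of 28 genes of the type I interferon list (53.6%). Because fewer than 80% of the genes of each set had a window, these shares describe the genes that had one and are void as a check on the sets. A match is not evidence of binding.

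Fewer of the sensors that feed this pathway were called. In the list of interferon genes and nucleic acid sensors, 11 of 24 tested genes were higher and none lower, with a median log2 change of 0.47. The 4 with the smallest p belonged to the Ifi200 family of DNA-binding proteins. Ifi209 had a log2 change of 1.03 ± 0.14 (adjusted p = 0.00146), Ifi205 one of 0.80 ± 0.12, Ifi204 one of 0.72 ± 0.11 and Ifi211 one of 0.68 ± 0.11. Ifnb1, interferon beta itself, did not pass (log2 change 1.50, adjusted p = 0.0564), and was chosen after its value was seen. The count of 11 fell to 7 without control 2 or without RT_FAP41BBL 2. With the muscle score as a covariate it was 3, while the median was 0.58.

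Genes of the interferon-gamma response changed in smaller number. Of 30 tested, 9 were higher and none lower, with a median log2 change of 0.54. They were led by GTPases that act against intracellular pathogens: Gbp3 rose from a median of 170 to 264 CPM (log2 change 0.75 ± 0.13, adjusted p = 0.00546), Irgm1 by 0.73 ± 0.13 (adjusted p = 0.00748) and Tgtp1 by 0.94 ± 0.17 (adjusted p = 0.00748). The Gbp, Irgm and Tgtp families have close copies, so single values are uncertain. Cxcl9, a chemokine induced by interferon-gamma and chosen after its value was seen, had a log2 change of 0.00 (adjusted p = 0.999), and Ifng itself one of 0.73 ± 0.33 (adjusted p = 0.204). The count of 9 fell to 5 without control 2. With the muscle score as a covariate it was 0, while the median was 0.77.

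Of the antigen presentation genes 1 passed. None of 22 MHC class I presentation genes was higher or lower, although all 22 had a log2 change above 0 (median 0.16, against 50.5% of all tested genes above 0). Of 11 MHC class II presentation genes, 1 rose: Ctss, the protease that trims the invariant chain (log2 change 0.66 ± 0.16, adjusted p = 0.0331). Its call was lost in 7 of the 12 fits without 1 library, with an adjusted p up to 0.0874. H2-Aa, a class II chain, lay between 580 and 855 CPM without irradiation and between 90.9 and 1229 CPM with it (log2 change -0.54 ± 0.44, adjusted p = 0.516). The irradiated libraries thus spread on both sides of the others. The class II median was -0.45, with -1.32 for RT minus control, 0.40 for RT_FAP41BBL minus FAP41BBL, and 0.10 with the muscle score as a covariate.

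Of 28 cholesterol synthesis genes listed and tested, 21 were lower and none higher, with a median log2 change of -0.91, and for 11 of them the irradiated libraries all lay below the others. The count stayed between 18 and 22 whichever library was left out. This list too was drawn up with earlier results of these data known. With the muscle score as a covariate 11 genes were lower, at a median of -0.94. Fitted alone, the agonist-free libraries gave 20 genes lower at a median of -0.96, and the agonist-treated ones 2 genes at a median of -0.82.

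Srebf2 (GRCm39 chr15:82031382-82089580, plus strand), the main transcription factor of the pathway, had the smallest p of the fallen genes. It went from 154, 235 and 269 CPM to 92.5, 109 and 123 CPM, without overlap (log2 change -1.05 ± 0.11, adjusted p = 0.000675). Insig1, which holds the sterol sensor in the endoplasmic reticulum and is itself a target of SREBP2, went from 28.8, 41.8 and 53.2 CPM to 15.5, 19.5 and 22.6 CPM (log2 change -1.08 ± 0.14, adjusted p = 0.00135). The regulators were not uniform. Srebf1, the partner factor of fatty acid synthesis, and Scap, the sterol sensor, were chosen after their values were seen and had log2 changes of -0.11 (adjusted p = 0.511) and -0.05 (adjusted p = 0.762). Dhcr7, Tm7sf2, Insig2 and Ebp did not pass either.

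Enzymes of the early steps and of the sterol branch were among those that fell. Hmgcs1, which makes HMG-CoA, went from 56.1, 72.4 and 108 CPM to 28.1, 36.8 and 47.8 CPM (log2 change -1.07 ± 0.16, adjusted p = 0.00321). In the isoprenoid steps Idi1 and Fdps had log2 changes of -1.81 (adjusted p = 0.00334) and -1.64 (adjusted p = 0.00683), and their groups overlapped. Both were chosen after their values were seen. In the sterol branch the groups of Sqle, Lss and Cyp51 stayed apart. Sqle, squalene epoxidase, went from 43.9, 71.0 and 83.7 CPM to 19.1, 27.2 and 40.6 CPM (log2 change -1.31 ± 0.16, adjusted p = 0.00113). Lss, which closes the sterol rings, went from 30.7, 42.7 and 48.1 CPM to 22.3, 22.7 and 26.7 CPM (log2 change -0.80 ± 0.10, adjusted p = 0.000985). Cyp51, a sterol demethylase, had a log2 change of -1.49 ± 0.24 (adjusted p = 0.00468).

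Stard4, a carrier of cholesterol between membranes, was lower too (log2 change -1.09 ± 0.15, adjusted p = 0.00146). Fads2, a desaturase of fatty acids that is not on the list, fell by 1.06 ± 0.14 on the log2 scale (adjusted p = 0.00119). Among the non-irradiated libraries FAP41BBL 2 had the lowest cholesterol score, at 4.78, next to 4.76 in the highest irradiated library.

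The promoters of fallen cholesterol genes are shown because the CCAAT box was common in the cholesterol list. The box is bound by NF-Y, which works beside SREBP2 at sterol genes. The search used CCAAT on both strands in the same RefSeq windows of GRCm38.p6, capitals mark the matches (ATTGG is the reverse complement), and each stretch ends at or before the gene start. Hmgcs1 lies on the plus strand (chr13:119690101-119690350), Srebf2 on the plus strand (chr15:82147104-82147168), Insig1 on the plus strand (chr5:28071166-28071230), Lss on the plus strand (chr10:76531513-76531577) and Cyp51 on the minus strand (chr5:4104698-4104756).
Hmgcs1: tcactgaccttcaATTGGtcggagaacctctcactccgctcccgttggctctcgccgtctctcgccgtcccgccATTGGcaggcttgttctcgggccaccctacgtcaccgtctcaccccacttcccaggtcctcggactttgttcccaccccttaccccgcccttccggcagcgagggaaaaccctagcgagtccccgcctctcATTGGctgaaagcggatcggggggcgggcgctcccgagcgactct
Srebf2: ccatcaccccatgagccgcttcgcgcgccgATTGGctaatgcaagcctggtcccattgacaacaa
Insig1: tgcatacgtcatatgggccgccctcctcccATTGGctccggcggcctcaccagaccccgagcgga
Lss: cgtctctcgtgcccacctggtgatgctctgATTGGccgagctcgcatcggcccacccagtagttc
Cyp51: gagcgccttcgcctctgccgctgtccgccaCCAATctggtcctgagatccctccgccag

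The Hmgcs1 window held 4 matches, 3 of them in the stretch shown, and the 4 other genes held 1 each. Fads2 had none. CCAAT was found in 18 of 20 cholesterol genes with a window (90%), in 42.2% of all genes with one, in 47.2% of the genes called lower and in 38.4% of those called higher. The core of the sterol regulatory element, TCACNCCAC on both strands, was searched after the data were seen and was found in 1 of the 20 cholesterol genes and in 1.44% of all genes with a window. Other motifs were searched on both strands in the same way. The AP-1 site TGAGTCA was found in 5.03% of all genes, 8.71% of those called higher and 3.93% of those called lower, the cAMP response element TGACGTCA in 3.33%, 3.56% and 0.656%, and the heat shock element (GAA, TTC and GAA with any 2 bases between them) in 0.594%, 0.594% and 0.328%. The same limit on coverage holds for all of these shares.

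Most of the monocyte and macrophage genes called were higher. In bulk tumour RNA, a change in the number of cells of a type and one in RNA per cell cannot be told apart. Of 31 tested genes of the macrophage and monocyte list, 8 were higher and 1 lower, with a median log2 change of 0.36. Ly6c2, a surface antigen of inflammatory monocytes, went from 16.3, 19.3 and 25.8 CPM to 43.0, 59.9 and 78.2 CPM without overlap (log2 change 1.54 ± 0.15, adjusted p = 0.00049). Fcgr1, the high-affinity IgG receptor, went from 93.0, 115 and 148 CPM to 141, 215 and 281 CPM, so that the highest non-irradiated library stood above the lowest irradiated one (log2 change 0.90 ± 0.11, adjusted p = 0.000883). Ms4a7 rose by 0.94 ± 0.14 (adjusted p = 0.00208) and Adgre1, the macrophage antigen F4/80, by 0.80 ± 0.16 (adjusted p = 0.0135). The member that fell was Cd14, a co-receptor for lipopolysaccharide, chosen after its value was seen (log2 change -0.38, adjusted p = 0.0345), and its call was lost in 9 of the 12 fits without 1 library, with an adjusted p up to 0.0804.

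Mgl2, a lectin of macrophages and dendritic cells with an alternatively activated state, fell the most among the genes called lower that the naming rule selects. It is on the dendritic cell list, where 1 of 25 genes was higher and 1, Mgl2, was lower, at a median of -0.18. Mgl2 levels were 4.24, 10.7 and 18.2 CPM without irradiation and 1.6, 2.17 and 4.1 CPM with it, and every irradiated library lay below every other (log2 change -2.10 ± 0.25, adjusted p = 0.000985). Cx3cr1, the fractalkine receptor, had a log2 change of -1.03 ± 0.37 and did not pass (adjusted p = 0.125). Il1rl1, the receptor of interleukin-33, stood out for its tight groups. It is on the lists of regulatory T cells and of mast cells and eosinophils, not on the macrophage list. Of 15 regulatory T cell genes 2 were higher and 1 lower (median 0.06). Of 21 mast cell and eosinophil genes 1 was higher (median -0.02, with -0.82 for RT minus control and 0.75 for RT_FAP41BBL minus FAP41BBL). Il1rl1 went from 43.3, 48.0 and 53.4 CPM to 80.6, 85.9 and 102 CPM (log2 change 0.87 ± 0.07, adjusted p = 0.000237). The macrophage count of 8 fell to 5 without control 2, without RT_FAP41BBL 2 or without RT 3, and to 4 with the muscle score as a covariate. Ly6c2 and Mgl2 kept their calls in each of these fits.

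Of 21 chemokines that attract monocytes and T cells, 8 were higher and none lower, and 5 had a log2 change below 0. The median was 0.68. Ccl2, the ligand of CCR2 on monocytes, went from 26.1, 37.9 and 49.5 CPM to 62.5, 81.1 and 109.9 CPM without overlap (log2 change 1.19 ± 0.19, adjusted p = 0.00396). Ccl5, an attractant of T cells and monocytes, went from 21.8, 28.1 and 38.5 CPM to 52.4, 69.9 and 145 CPM (log2 change 1.42 ± 0.19, adjusted p = 0.00146). The log2 change of Cxcl14 was 1.05 ± 0.16 (adjusted p = 0.00335), and that of Cxcl10, a CXCR3 ligand chosen after its value was seen, 0.82 ± 0.18 (adjusted p = 0.0175). For both of them the irradiated libraries all stood above the others. The Cxcl10 call was lost without control 2 and without RT_FAP41BBL 2. Without one library at a time the chemokine count was 7 to 12, and with the muscle score as a covariate 1 chemokine was called, at a list median of 0.50.

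Several cytotoxic effector genes were higher, while T cell genes were called at a share near the 6.26% of all genes tested. In the list of cytotoxic effectors and NK receptors 7 of 28 tested genes were higher and none lower, with a median log2 change of 0.47. Gzmb, granzyme B, went from 14.2, 24.8 and 49.4 CPM to 53.7, 69.8 and 109.9 CPM without overlap (log2 change 1.45 ± 0.23, adjusted p = 0.0041). Prf1, perforin, had a log2 change of 1.09 ± 0.21 (adjusted p = 0.0111) and Gzma, granzyme A, one of 1.03 ± 0.21 (adjusted p = 0.0136). Gzmc, chosen after its value was seen, had one of 1.72 ± 0.38 (adjusted p = 0.0264) and lost its call in 4 of the 12 fits without a library, those without FAP41BBL 1, control 1, control 2 and RT 3. Granzymes have close copies, so the single values are uncertain. The count of 7 was 12 without FAP41BBL 3, 4 without control 2 or RT 3, and 1 with the muscle score as a covariate, in which Gzmb had a log2 change of 1.54 (adjusted p = 0.0684).

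Of 29 T cell genes 1 was higher and 1 lower, against 3.89% and 2.37% of all genes tested, with a median log2 change of -0.03. That median was -0.29 for RT minus control and 0.24 for RT_FAP41BBL minus FAP41BBL, and its sign turned under 6 alternatives. The lower one was Tcf7, a factor of naive and memory T cells (log2 change -0.55 ± 0.13, adjusted p = 0.0269), whose call was lost without control 3, RT 3 or any 1 of the RT_FAP41BBL libraries. Cd8a lay between 11.1 and 19.6 CPM without irradiation and between 4.34 and 28.0 CPM with it (log2 change -0.29 ± 0.30, adjusted p = 0.613), and Foxp3, the factor of regulatory T cells, had a log2 change of 0.06 ± 0.21 (adjusted p = 0.902). The group of checkpoint and costimulatory genes had 4 of 26 higher and 1 lower. Tnfsf4, OX40 ligand, rose from a median of 0.628 to 1.72 CPM (log2 change 1.38 ± 0.27, adjusted p = 0.0103), and Lgals9, galectin-9, rose by 0.51 ± 0.10 (adjusted p = 0.00965). Cd276, B7-H3, was the member that fell (log2 change -0.38 ± 0.08, adjusted p = 0.017). Cd274, PD-L1, had a log2 change of 0.77 ± 0.22 and did not pass (adjusted p = 0.0616). The 4 higher were 2 to 6 with each library left out (2 without FAP41BBL 1, FAP41BBL 2, control 2, control 3, RT_FAP41BBL 1 or RT_FAP41BBL 2, and 6 without RT 2), and none was called with the muscle score as a covariate, at a median of 0.24 against 0.16.

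The targets of the agonist did not pass in this comparison. Tnfrsf9, which encodes 4-1BB, lay between 20.5 and 36.9 CPM without irradiation and between 25.4 and 36.2 CPM with it (log2 change 0.20 ± 0.13, adjusted p = 0.409). Its ligand Tnfsf9 had a log2 change of 0.18 ± 0.12 (adjusted p = 0.369). Fap, the protease to which the agent is directed, lay between 4.77 and 18.9 CPM without irradiation and 5.92 and 17.1 CPM with it (log2 change 0.18 ± 0.37, adjusted p = 0.817). In each of these genes the irradiated and non-irradiated ranges overlapped.

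Early response and inflammatory genes rose in part. Of 32 tested early response factors 10 were higher and none lower, with a median log2 change of 0.37. Egr1, a zinc finger factor, went from 20.6, 32.3 and 53.7 CPM to 59.4, 70.2 and 83.5 CPM without overlap (log2 change 1.13 ± 0.19, adjusted p = 0.00618). Fosl1, a subunit of AP-1, had a log2 change of 0.76 ± 0.11 (adjusted p = 0.00183) and Ier5 one of 0.67 ± 0.09 (adjusted p = 0.00152). The count of 10 fell to 5 without control 2, RT_FAP41BBL 2 or RT 3, to 6 without control 1 or control 3, and to 1 with the muscle score as a covariate. In the inflammatory and NF-kB list 5 of 30 genes were higher. Tnf went from 2.72, 5.13 and 9.81 CPM to 6.84, 16.7 and 30 CPM, with overlap (log2 change 1.70 ± 0.24, adjusted p = 0.00188), and Il1rn, the interleukin-1 receptor antagonist, had a log2 change of 1.01 ± 0.15 (adjusted p = 0.00254). The 5 were 2 without control 2, 3 without FAP41BBL 1, control 1, RT_FAP41BBL 2 or RT 3, 8 without FAP41BBL 3, and 1 with the muscle score as a covariate.

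Some complement and cell death genes rose. Of 21 complement genes 4 were higher, among them Cfb, factor B of the alternative pathway, from 3.42, 3.89 and 5.09 CPM to 5.56, 10.3 and 14.9 CPM (log2 change 1.22 ± 0.19, adjusted p = 0.00295), and C3ar1, the receptor of C3a (0.81 ± 0.10, adjusted p = 0.00105). Of 25 genes of cell death and the inflammasome 5 were higher. Zbp1, a sensor of Z-form nucleic acids that is also on the type I interferon list, rose from a median of 142 to 259 CPM (log2 change 0.96 ± 0.13, adjusted p = 0.00146). Mlkl, the executioner of necroptosis, rose from 90.4, 100.1 and 119 CPM to 126, 151 and 175 CPM (log2 change 0.55 ± 0.10, adjusted p = 0.00535). Both kept their irradiated libraries above all others. In the hypoxia and glycolysis list 5 of 32 were lower and none higher, led by Aldoc, a glycolytic aldolase (log2 change -1.01 ± 0.18, adjusted p = 0.00748). The 4 complement genes were 7 without FAP41BBL 3, 8 without RT 2 and 3 without each other library. Cfp, the complement member properdin, lost its call in 10 of the 12 fits without 1 library, with an adjusted p up to 0.121. The 5 cell death genes were 3 without control 2 or RT_FAP41BBL 2. The 5 hypoxia genes were 2 without control 2, control 3 or RT_FAP41BBL 2 and 3 without control 1, RT_FAP41BBL 1 or RT 3. With the muscle score as a covariate 2 complement genes and 1 cell death gene were higher and no hypoxia gene was lower.

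Stromal and vessel genes were called in small number, beside 6.26% of all genes tested. Of 24 fibroblast genes 1 was higher and 1 lower, with 9 higher without FAP41BBL 3, and of 36 extracellular matrix genes 1, Fmod, a collagen-binding proteoglycan, was higher (log2 change 1.94 ± 0.50, adjusted p = 0.0402). Fmod lost its call in 10 of the 12 fits without 1 library, with an adjusted p up to 0.105. Of 25 TGF-beta ligands, receptors and targets 1 was higher and 2 were lower. Tgfb3, a TGF-beta ligand, had a log2 change of -0.60 ± 0.14 (adjusted p = 0.023, lost without control 2), and Nog, a BMP antagonist, one of 2.97 ± 0.53 (adjusted p = 0.00703). With the muscle score as a covariate the log2 change of Nog was 1.61 (adjusted p = 0.233). Kdr, VEGF receptor 2, was the 1 of 24 endothelial genes that rose (log2 change 0.57 ± 0.13, adjusted p = 0.0213), and its call was lost without control 1, control 3 or RT_FAP41BBL 2. None of 24 epithelial tumour cell genes passed.

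**Figure D3:**
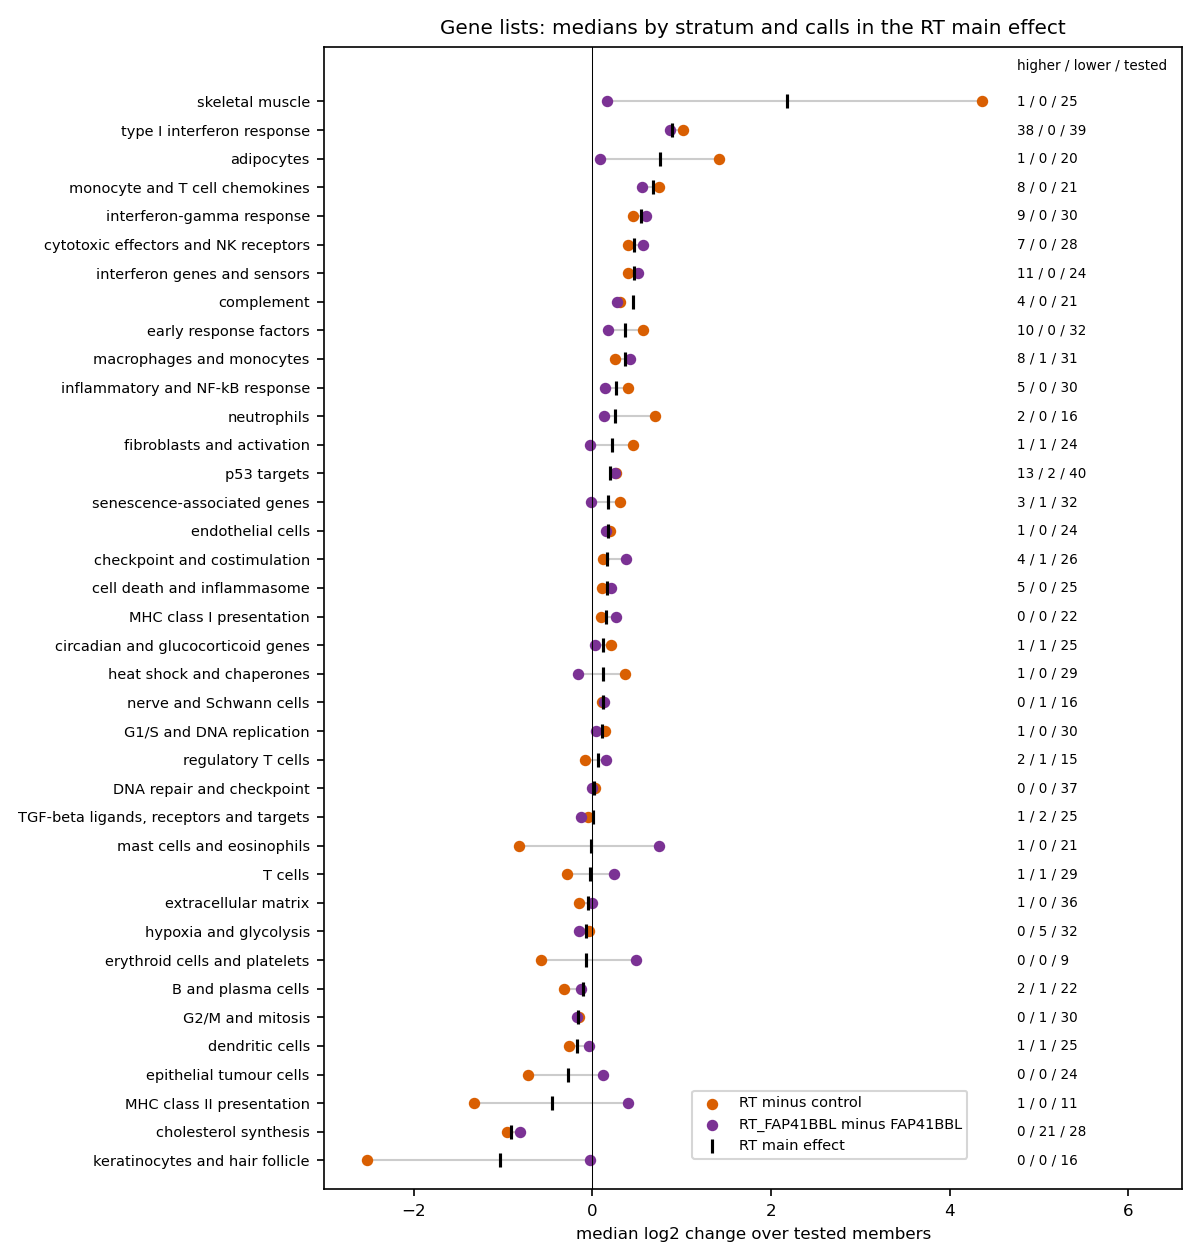
Median log2 change over the tested members of each of 38 gene lists, for RT minus control, for RT_FAP41BBL minus FAP41BBL and for the RT main effect, with the numbers of members called higher and lower and tested at the right. The type I interferon medians (1.01 and 0.87) and the cholesterol medians (-0.96 and -0.81) lie close together in both agonist settings, and those of the muscle list (4.36 and 0.16) lie far apart.

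The naming rule gave the 12 largest rises among genes whose groups did not overlap. Slfn4, a Schlafen gene of myeloid cells, went from 42.1, 50.5 and 80.9 CPM to 143, 256 and 290.1 CPM (log2 change 2.07 ± 0.22, adjusted p = 0.000875), and Ifit1bl1 from 1.77, 2.09 and 3.88 CPM to 5.74, 9.69 and 17.1 CPM (2.15 ± 0.26, adjusted p = 0.001). Card14, a scaffold of NF-kB signalling, had a log2 change of 1.92 ± 0.39 (adjusted p = 0.0135) and Nppb, a natriuretic peptide, one of 1.86 ± 0.28 (adjusted p = 0.00255). All of these kept their irradiated libraries above the others.

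Of the same 12 rises, Tnni1 (slow troponin I), Tnnt1 (slow troponin T), Myh3 (embryonic myosin), Myoz2, Lmod2 and Chrna1 (the muscle acetylcholine receptor) encode proteins of muscle. Tnni1 went from 0.137, 0.391 and 1.04 CPM to 1.58, 5.11 and 10.3 CPM (log2 change 3.17 ± 0.49, adjusted p = 0.00342). Its log2 change was 4.14 for RT minus control and 2.13 for RT_FAP41BBL minus FAP41BBL. Chrna1 had log2 changes of 3.86 and 1.51, and Myoz2 of 4.43 and 1.68, in the same order. The other 2 rises were Kcnc4, a potassium channel (3.40 ± 0.51, adjusted p = 0.00329), and H19, an imprinted noncoding RNA (2.58 ± 0.63, adjusted p = 0.0402). None of these 8 kept its call with the muscle score as a covariate. Card14 lost it too (log2 change 1.05, adjusted p = 0.336), and Slfn4, Ifit1bl1 and Nppb kept it, with Nppb at 1.15 (adjusted p = 0.0483). Myoz2, Tnnt1, Lmod2, Chrna1 and H19 also lost it in at least 1 fit without a library.

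Among the 12 largest falls outside lipid genes and Mgl2 were Mettl27 (log2 change -1.07 ± 0.16, adjusted p = 0.00198), Prtg, a cell surface protein of the embryo (-1.05 ± 0.21, adjusted p = 0.0112), and BC034090 (-1.09 ± 0.20, adjusted p = 0.00749). By smallest p the falls also held Cdon, a co-receptor of hedgehog signalling, from 194, 218 and 246 CPM to 129, 146 and 151 CPM (log2 change -0.62 ± 0.08, adjusted p = 0.00106), and Sspn, sarcospan, from 79.2, 91.2 and 94.7 CPM to 50.9, 58.0 and 74.7 CPM (-0.56 ± 0.07, adjusted p = 0.00119). Every irradiated library lay below every other for these 5 genes. Markers of other tissues that a tumour sample can hold were called in small number, beside 6.26% of all genes tested. Beside Myh7 of the muscle list, 1 of 20 adipocyte genes was higher, Pparg, a nuclear receptor of fat cells and macrophages (log2 change 0.89 ± 0.18, adjusted p = 0.0105), and 1 of 16 nerve and Schwann cell genes was lower, Pmp22, a myelin protein (-0.86 ± 0.13, adjusted p = 0.00308). None of 16 keratinocyte and hair follicle genes was called. The few calls do not show that the content of these tissues was even. Of the 20 adipocyte genes 18 had a log2 change above 0 (median 0.76, with 1.42 for RT minus control and 0.09 for RT_FAP41BBL minus FAP41BBL). All 16 keratinocyte genes had one below 0 (median -1.03, with -2.52 and -0.03 in the same order, and 0.10 without control 2). Adipoq, a fat cell hormone, had a log2 change of 0.84 ± 0.68 (adjusted p = 0.509), Actn3, a muscle actinin, one of 2.55 ± 1.25 (adjusted p = 0.262), Krt5, a skin keratin, one of -0.89 ± 1.54 (adjusted p = 0.788) and Epcam one of -0.70 ± 0.92 (adjusted p = 0.714).

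The change with irradiation was compared between tumours without and with the agonist, which share no library. Fitted alone, RT against control gave 837 genes higher (4.95% of 16902 tested) and 227 lower (1.34%), and RT_FAP41BBL against FAP41BBL gave 219 higher (1.29% of 16979) and 50 lower (0.294%). Of 748 genes called higher without the agonist, 75.4% also had a positive change with it, against 46.6% of all genes tested in both, and 5.21% were called there, against 1.32%. Of 224 called lower, 84.4% had a negative change, against 53.4%, and 6.7% were called, against 0.303%. In the other order, 74.8% of 218 higher genes kept their direction, against 49.6%, and 90% of 50 lower genes, against 50.4%. Both directions were thus shared by more of the called genes than of all genes. Of the 1111 genes called in the main effect, 765 (68.9%) had the larger change without the agonist. The same share over all tested genes was not computed, so the count is not read as a trait of the called genes.

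**Figure D4:**
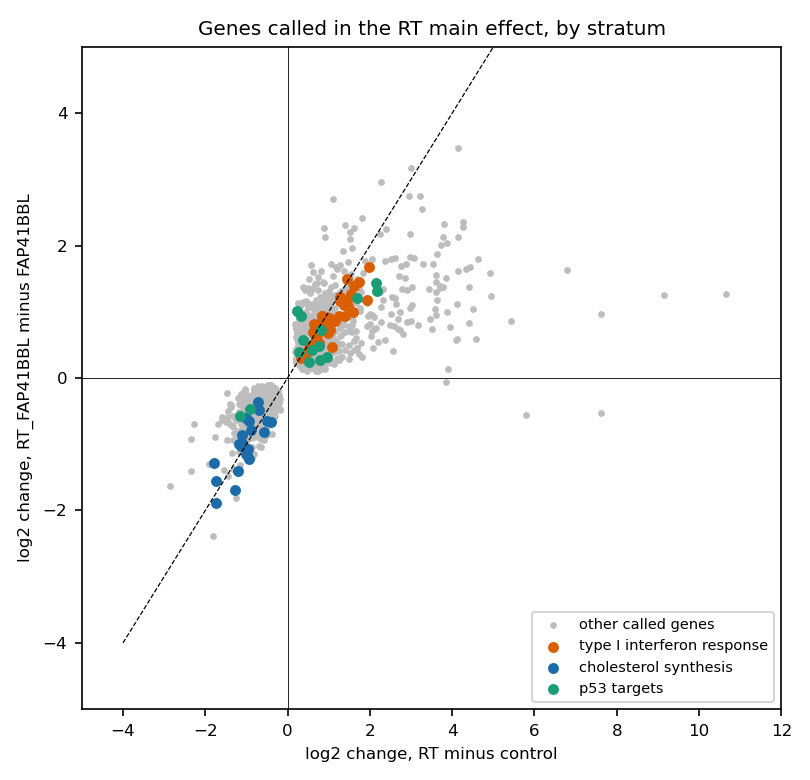
Log2 change of each gene called in the RT main effect, for RT minus control on the x axis and RT_FAP41BBL minus FAP41BBL on the y axis, with the dashed line at equal change and members of 3 lists coloured. Type I interferon and cholesterol genes lie near the line, while a tail of other genes extends to the right with large changes in RT only. Both axes enter the main effect that chose the points.

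The difference between the 2 changes was tested as an interaction, and 27 of 17757 genes passed (0.152%), of which 6 were also called in the main effect. None was called when any 1 of the RT_FAP41BBL libraries was left out, and 1 was called without control 2. Irf7 changed by 1.44 without and 1.50 with the agonist, and Ifit3b by 1.97 and 1.67. The interaction was not called for either of them. Genes with a called interaction included several of muscle. Igfn1, a muscle protein, had log2 changes of 7.62 and 0.97 (interaction -6.65), Mss51 of 3.12 and -0.10 (-3.22), and Ankrd23 of 2.58 and 0.78 (-1.80). Hsph1, a heat shock protein, changed by 1.10 without and -0.60 with the agonist (interaction -1.70), and Sla, an adaptor of lymphocyte receptor signalling, by -1.20 and 0.73 (interaction 1.92). For Hsph1 and Sla the main effect averaged opposite changes, at 0.25 (adjusted p = 0.668) and -0.23 (adjusted p = 0.737).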

How the data were processed

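Polyadenylated RNA of 12 tumour samples was sequenced as stranded read pairs, and grouping followed the treatment labels. The deposited files hold raw counts for every gene, which the authors made with featureCounts 1.6.0 on GRCm39 with GENCODE M33, per the file headers. The submitters' processing notes list, without their roles, FastQC 0.11.8, STAR 2.7.9a, limma and edgeR. Each file held 56884 genes, of which 51948 (91.3%) received a symbol from GENCODE M21 by identifier, and promoters came from RefSeq GRCm38.p6 by symbol.

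The analysis used edgeR 4.0.16 under R 4.3.3: filterByExpr on the 4 groups, TMM scaling, and the robust quasi-likelihood test of irradiation with agonist as a second factor, at an adjusted p of 0.05 (Benjamini-Hochberg over all genes tested). The common biological coefficient of variation was 0.23. The SE of a log2 change is its size divided by the square root of the F statistic. Interactions and changes by agonist came from a 4-group model. The changes fitted alone used 6 libraries each. List scores are mean log2 CPM with a prior count of 2. Lists were described by counts and medians, without a set test.

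Named genes were the 12 largest rises and falls (adjusted p under 0.05, mean log2 CPM of at least 1, groups without overlap), the 8 rises and falls with the smallest p, up to 4 members of each list by p, a set of genes named in every case, and the leading interactions. Predicted genes, pseudogenes, ribosomal, mitochondrial and receptor segment genes were left out. The members and lists were chosen with earlier results of these data known. No pair of libraries within a group was a copy. On simulated counts for this comparison, 81% of 200 genes changed 2-fold were recovered over 17464 genes, with 2.41% of calls false. The changed genes were not drawn from those with low counts. The simulation held no agonist effect, interaction or muscle difference, so its shares need not hold for the real libraries. Alternatives were RLE factors, library totals, no filter, DESeq2 1.42.0, limma-voom 3.58.1, other models, muscle and keratinocyte covariates, each library left out, and a shorter promoter window. Single values of a few list members are not reported here, but those genes are in the counts and medians.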

Additional observations from a re-analysis of the deposited data

Results flagged for a closer look

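Within the 6 libraries of an arm, a library far from the others was sought for each named gene, and 12 were found over 159 genes in 2 arms (3.77%), where chance gives about 1 in 20. Among the non-irradiated libraries FAP41BBL 2 was high for 4 genes: Ifi209 at 33.1 CPM (others 18.1 to 20.6), Il10 at 2.55 (1.16 to 1.54), Irgm2 at 216 (133 to 158) and Irf9 at 94.4 (76.6 to 81.3). It was low for Mettl27, at 4.05 CPM (5.56 to 6.51). FAP41BBL 3 was high for C2 at 7.98 CPM (4.49 to 5.47). Control 2 was low for the T cell genes Cd8a, at 11.1 CPM (16.1 to 19.6), and Cd3e, at 4.81 (8.07 to 10.5).

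Among the irradiated libraries RT 2 was low for Il1rn at 47.2 CPM (70.4 to 83.9) and high for Ccne1 at 18.1 (14.2 to 15.5), RT 1 was high for Tcf7 at 16.7 (11.5 to 13.2), and RT_FAP41BBL 2 was high for Ifi211 at 101 (77.0 to 84.8). RT_FAP41BBL 2 also had a type I interferon score of 7.94, far above the other irradiated libraries.

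The change with irradiation differed between tumours with and without the agonist, by the interaction test, for 8 named genes. No gene passed this test when any 1 of the 3 RT_FAP41BBL libraries was left out, and 1 passed without control 2. The difference on the log2 scale, with minus without agonist, was -6.65 for Igfn1, -3.22 for Mss51, -3.13 for Tspan8, -2.58 for Pkia, -1.8 for Ankrd23, -1.79 for Tacc2, -1.7 for Hsph1 and 1.92 for Sla.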

How the results depend on the processing

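None of the 129 named genes called reversed under an alternative that gave it a value. Of 38 list medians, 19 turned sign under at least 1 alternative, 11 of them with the muscle score as a covariate, where the muscle median went from 2.18 to -0.0617. Against 691 genes higher and 420 lower, DESeq2 gave 1247 and 936, and the 4-group model with the mean of both contrasts 1156 and 631. The agonist-free libraries alone gave 227 lower, the agonist-treated libraries alone 219 higher and 50 lower, and the muscle score as a covariate 118 and 28. Leaving out each library gave 331 to 1299 higher and 193 to 658 lower: 422 and 258 without control 1, 331 and 193 without control 2, 442 and 271 without control 3, 359 and 243 without RT_FAP41BBL 2, 411 and 212 without RT 3, 1299 higher without FAP41BBL 3, 265 lower without RT_FAP41BBL 3 and 658 lower without RT 1. The 27 interaction calls were 17 with library totals, 102 without a filter, 633 by DESeq2, and 0 to 263 with each library left out. The cause of these shifts was not tested. Fits on fewer libraries gave more calls in some cases and fewer in others. Of 129 named genes called, 97 kept the call whichever library was left out, and 47 kept it with the muscle covariate. In the 200-base window CCAAT was found in 31.3% of higher and 39% of lower genes, against 35.8% of all genes with a window.

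Libraries of different groups that carry the same number did not deviate together: of 18 pairs, 6 had a correlation over 0.1 (range -0.344 to 0.432), so the numbers were not taken as pairs. The replicate block gave 637 genes higher, 396 lower and 9 interaction calls.

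The shares of calls under an adjusted p of 0.01 had no value for genes called with the agonist, since none passed there; among genes called without it, 78.6% of the higher and 91.5% of the lower kept their direction. Levels under 1 CPM, such as those of Myh7 or Igfn1 without irradiation, rest on few reads.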
